A study of Mus musculus with 12 samples.

Results

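Halr1, Emx2os and Dmrta2os are long non-coding RNA genes that lie beside genes for transcription factors of embryonic patterning, and their RNA was read in 12 spleen samples of female BALB/c mice. The genes were chosen by name and by their measured levels in earlier results of these arrays, with group differences in view, and each was read through the probe that carries its RefSeq accession. Their differences between groups are therefore descriptions, and the test values printed with them support nothing further. Each of the 3 genes had 1 such probe, so that choosing the probe of highest mean left nothing out, and all 3 were among the 72515 features tested, of 97095 on the arrays before the filter on dim probes. The mice were 6 weeks old and received 3 intraperitoneal injections, on days 1, 3 and 5. In the OVA groups the injections held ovalbumin, an egg-white protein, at 2 mg/kg, and in the control groups normal saline. Spleens were taken on day 14 or day 28, with 2 control and 4 OVA samples on each day, and each sample was hybridised to 1 single-colour Agilent array. The labels call the OVA mice allergic, and name neither an adjuvant nor an airway challenge.

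HOX genes encode homeobox transcription factors that give cells their position along the body axis, and the genes of the HOXA cluster are also active in blood progenitors. Halr1 lies beside the HOXA cluster on chromosome 6. Emx2os lies on chromosome 19 next to Emx2, a homeobox gene of the developing forebrain and urogenital tract, and is annotated as an antisense RNA. Dmrta2os lies on chromosome 4 and overlaps Dmrta2, which encodes a DM-domain transcription factor of cortical development. The neighbours named here come from the RefSeq table of GRCm38.p6. None of the protein-coding neighbours listed for comparison (17 genes, among them Emx2, Dmrta2, Skap2 and Faf1) had a named probe, so that the regulators themselves were not read. None of 23 marker genes of spleen cell types and of other tissues had one either, and the labelled tissue could therefore not be checked against its markers.

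The start regions of Halr1 and Dmrta2os are shown as starts that RefSeq gives these genes. They were taken by gene name, and whether the transcript that a probe is named for begins there was not checked. They were read from RefSeq's promoter table (GRCm38.p6), which matched 2 of the 3 genes. Each sequence runs 5′ to 3′ on the strand of the gene, from 150 bases before the start to 50 bases after it, and the capitals mark the first 50 transcribed bases. The Halr1 window is chr6:52102799-52102998 on the + strand, and the Dmrta2os window is chr4:109979575-109979774 on the - strand.
Halr1: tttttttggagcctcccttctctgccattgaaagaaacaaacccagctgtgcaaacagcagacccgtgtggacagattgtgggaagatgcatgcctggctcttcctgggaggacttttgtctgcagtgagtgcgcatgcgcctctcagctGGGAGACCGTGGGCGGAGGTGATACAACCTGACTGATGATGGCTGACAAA
Dmrta2os: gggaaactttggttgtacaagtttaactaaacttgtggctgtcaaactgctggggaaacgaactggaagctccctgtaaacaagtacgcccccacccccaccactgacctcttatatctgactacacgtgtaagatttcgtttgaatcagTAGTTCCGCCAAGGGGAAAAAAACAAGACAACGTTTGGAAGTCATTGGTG
The Halr1 window holds 5 CpG dinucleotides at a GC content of 53.5%, and the Dmrta2os window 6 at 45.5%. The medians over 32851 windows of the same length in the table were 5 CpG dinucleotides and 54%. Both strands were searched for 5 motifs. The first, the core letters of a TATA box, was TATAAA. The second was the CCAAT box, spelled by its name. A GATA-type site was searched as AGATAA. A STAT-type site was searched as TTC followed, after any 4 bases, by the letters GAA. A homeobox-type site was searched as TAATTA. The Halr1 window held none of them. RefSeq gives Dmrta2os 3 windows, of which the outermost is shown. It held 1 CCAAT match, within the transcribed bases, and 1 STAT-type match, whose first base lies 14 bases before the start. CCAAT occurred in 28.6% and the STAT-type letters in 4.31% of all windows, and the TATA, GATA-type and homeobox-type letters in 8.91%, 6.92% and 3.19%. A match describes these letters only.

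Levels are given as log2 signal minus the 75th percentile of the array, so that a level of 0 equals that percentile. That percentile was brighter on the day 28 OVA arrays (483.8 to 549.3 signal units) than on all others (266.7 to 368.1). Per the file headers the 4 control arrays shared 1 slide, and each OVA group had a slide of its own. Slide and group can therefore not be told apart for OVA against control, or between the OVA groups. For the spots within 5 rows and 5 columns of each spot of the 3 genes, the deviation from their own median over arrays was taken. The median of these deviations around a spot was -0.093 to 0.097 on any array. All differences below come from 1 limma model over the 12 arrays, with p-values adjusted by the Benjamini-Hochberg method over all 72515 features and 0.05 as threshold. The labels do not say whether each sample is a separate animal, so the p-values measure the spread between these samples, which may be technical.

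The comparisons asked whether OVA changed the spleen RNA at either day, and whether the day itself did. After OVA none of the 3 RNAs passed the threshold against saline, at day 14 or at day 28. Emx2os was 1.24-fold higher in the OVA spleens of day 28 than in those of day 14. Dmrta2os, relative to the percentile of the array, was 1.25-fold lower there. Halr1 was well above background on the OVA arrays of day 28 alone, so that the size of its difference from the other groups was not measured. In bulk spleen RNA, fewer cells of a type and less RNA per cell cannot be told apart.

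**Figure D1:**
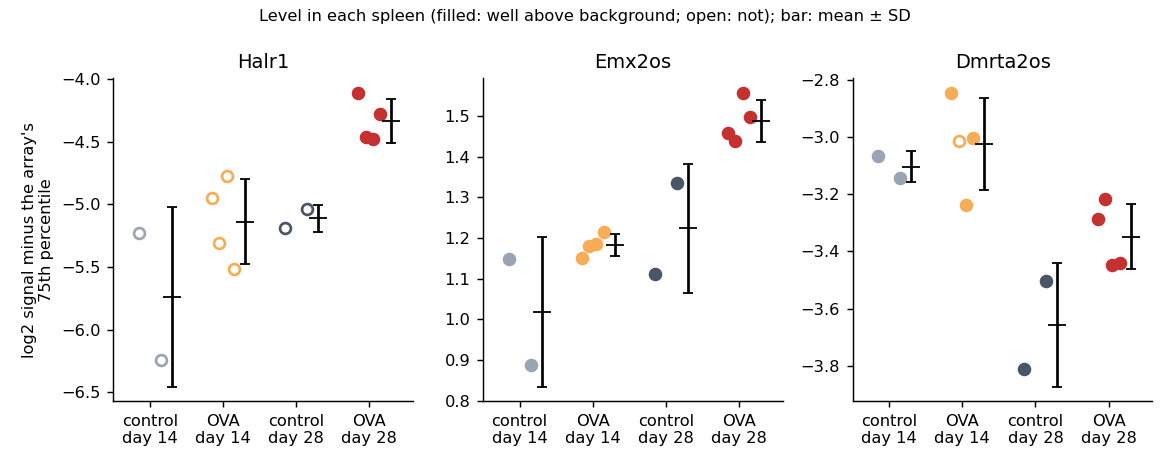
Level of Halr1, Emx2os and Dmrta2os in each of the 12 spleens (log2 signal minus the array's 75th percentile, vertical axis) by group, with filled points where the probe was well above background and open points where it was not, and bars for the group mean ± SD. The 4 OVA spleens of day 28 stand above all other spleens for Halr1 (-4.48 to -4.11) and Emx2os (1.44 to 1.56), while for Dmrta2os the lowest spleens are the 2 controls of day 28 (-3.81 and -3.50).

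Emx2os, the antisense neighbour of the forebrain homeobox gene Emx2, was read well above background on all 12 arrays, by 1 spot per array. The spot median was 26.6 to 65.3 times the local background. In the controls its level was 1.15 and 0.89 at day 14 and 1.11 and 1.34 at day 28. In the OVA spleens it was 1.15, 1.18, 1.19 and 1.22 (1.215 before rounding) at day 14, and 1.46, 1.44, 1.56 and 1.497 at day 28. The day 28 OVA spleens were thus higher than every other spleen, and the 4 OVA spleens of day 14 lay closer together than the controls of either day. The share of all features with such an order was not counted.

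The group means of Emx2os rose in the order control day 14 (1.02 ± 0.18, SD, n = 2), OVA day 14 (1.18 ± 0.03, SD, n = 4), control day 28 (1.22 ± 0.16, SD, n = 2) and OVA day 28 (1.49 ± 0.05, SD, n = 4). Of the neighbours in that order, the first 3 groups lie within the spread of the controls, since the controls of day 28 overlapped both and the highest control of day 14 nearly touched the lowest OVA spleen of that day.

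At day 14 Emx2os was higher in OVA than in control spleens by 0.16 ± 0.10 (SE, log2), which did not pass (adjusted p = 0.494, limma) and turned to -0.09 with spike-in scaling. The groups did not overlap, the closest levels being 1.150 in OVA and 1.149 in control, and OVA lay above control without overlap in 16.2% of all features. At day 28 OVA stood 0.26 ± 0.10 above control, or 1.2-fold. This missed the threshold (adjusted p = 0.112), and the groups did not overlap, as in 19.1% of all features. It passed with the normexp background (0.29, adjusted p = 0.0345), and it was 0.15 without control day 28 replicate 1 and 0.38 without control day 28 replicate 2. The OVA effect did not differ between days beyond its error (0.10 ± 0.15, adjusted p = 0.728).

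From day 14 to day 28 Emx2os rose in the OVA spleens by a log2 difference of 0.31 ± 0.08 (SE), with an adjusted p of 0.0172 (limma). The groups did not overlap, and day 28 lay above day 14 without overlap in 15.7% of all features. Higher values passed in 15% and lower values in 19.1% of all features, so that a call in this comparison is common on these arrays. The difference kept its direction in all 24 alternatives that could be computed, from 0.28 to 0.42, and missed the threshold in 1, without OVA day 28 replicate 3 (0.28, adjusted p = 0.0528). In the controls, which share a slide, Emx2os differed between days by 0.21 ± 0.12 and did not pass (adjusted p = 0.583).

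Halr1, the RNA beside the HOXA cluster, was well above background on the 4 OVA arrays of day 28 and on none of the other 8. It was read by 1 spot. Its level was -5.23 and -6.25 in the controls of day 14, -5.19 and -5.04 in those of day 28, and -4.95, -5.31, -4.78 and -5.52 in the OVA spleens of day 14. In the OVA spleens of day 28 it was -4.11, -4.46, -4.48 and -4.28. These 4 were above every other spleen, and control day 14 replicate 2 was the lowest.

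The unscaled signal shows how dim the probe was. It read 4.21 to 10.3 signal units on the 8 arrays without a call above background and 21.7 to 28.4 on the OVA arrays of day 28. The 600 negative control spots, which match no transcript, had a median of 2.57 to 6.96 units on the 8 arrays and 4.06 to 4.29 on the OVA arrays of day 28. Relative to that median, Halr1 was 5.34 to 6.91 times as bright on the OVA arrays of day 28 and 3.44 and 3.63 times on the controls of day 28. On the day 14 arrays the ratio was 1.18 and 3.41 in the controls and 2.81, 0.966, 3.67 and 2.35 in OVA. Halr1 exceeded the 95th percentile of the negative controls on every array but OVA day 14 replicate 2, although most of these readings were not flagged as well above background. OVA day 14 replicate 2, where Halr1 did not exceed the median of the negative controls, had the brightest negative controls of all arrays and the fewest spots well above background (57.5%, against 72.4% to 80% on the others). The part of this array, and of the brighter OVA arrays of day 28, in the differences of Halr1 and Dmrta2os was not tested beyond the values given without single arrays.

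**Figure D2:**
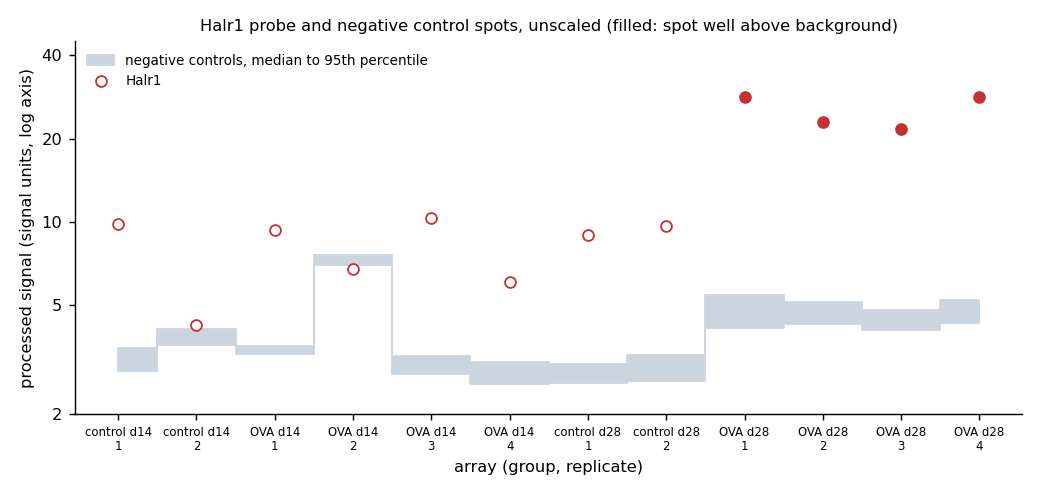
Processed signal before scaling (signal units, log axis) of the Halr1 probe on each array, with a grey band from the median to the 95th percentile of the negative control spots. Filled symbols mark spots well above background. Halr1 reads 21.7 to 28.4 units on the OVA arrays of day 28 and at most 10.3 on the others, and on OVA day 14 replicate 2 it falls below the grey band.

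Halr1 entered the test only through the group in which it was high, and the filter favours a difference in any feature that enters in this way. Of all features tested, 146 (0.201%) had the same pattern of detection, and their median difference was 1.09 (1.085 before rounding) at day 28 between OVA and control, with 93 of them past the threshold and higher. Between the OVA groups their median was 1.22, with 133 past the threshold and higher. The Halr1 differences below are nominal, since readings not well above background enter them, and their p-values support nothing.

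Halr1 differed between OVA and control by 0.78 ± 0.26 (SE, log2) at day 28 and did not pass (adjusted p = 0.0699, limma). The groups did not overlap, as in 19.1% of all features. The means were -4.34 ± 0.17 (SD, n = 4) and -5.11 ± 0.11 (SD, n = 2). With each dim array set at the lowest signal that was well above background there, the OVA spleens were nominally 1.28-fold higher. That lowest signal was taken over all probes of the array, so that it sets no strict bound for this probe. The difference passed with only the groups compared (0.78, adjusted p = 0.0157) and when either control of day 14 was left out (adjusted p = 0.0243 and 0.0293), since the spread of those controls then no longer entered the error. It turned to -0.22 (adjusted p = 0.0423) with the normexp background.

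At day 14 the difference of Halr1 was 0.60 ± 0.26 (adjusted p = 0.317, limma), with the probe not well above background in either group, so that no fold is given. It rested on control day 14 replicate 2, without which it was 0.09, and was 1.11 without control day 14 replicate 1. The groups overlapped, with OVA at -5.14 ± 0.34 (SD, n = 4) and control at -5.74 ± 0.72 (SD, n = 2). The OVA effect differed between days by 0.18 ± 0.37 (adjusted p = 0.815), and by -0.33 without control day 14 replicate 1.

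Between the OVA groups the Halr1 readings did not overlap, with day 28 higher, as in 15.7% of all features. None of the 4 of day 14 was well above background. The lowest signal well above background on those arrays (mean -4.05) lay above the Halr1 mean of day 28, so that no fold can be given in the same way. The nominal value of the fit was 0.80 ± 0.21 (SE, log2; adjusted p = 0.0141, limma), with an adjusted p of 0.0284 without the filter on dim probes. It turned to -0.38 (adjusted p = 0.000178) with the normexp background. In the controls Halr1 was higher at day 28 by 0.63 ± 0.30, without overlap, as in 23% of all features, and did not pass (adjusted p = 0.508). That difference was 0.12 without control day 14 replicate 2 and 1.13 without control day 14 replicate 1.

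Dmrta2os, whose partner Dmrta2 encodes a DM-domain factor, was read by 2 spots per array and was well above background at both spots on 11 of 12 arrays, the exception being OVA day 14 replicate 2. Its spot medians were 2.35 to 4.44 times the local background. Its level was -3.07 and -3.14 in the controls of day 14 and -3.81 and -3.50 in those of day 28. In the OVA spleens it was -2.85, -3.01, -3.24 and -3.00 (-3.005 before rounding) at day 14, and -3.29, -3.22, -3.45 and -3.44 at day 28. The day 14 spleens were higher than most day 28 spleens in both treatments, and the controls of day 28 were the lowest.

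The group means of Dmrta2os fell in the order OVA day 14 (-3.03 ± 0.16, SD, n = 4), control day 14 (-3.10 ± 0.05, SD, n = 2), OVA day 28 (-3.35 ± 0.11, SD, n = 4) and control day 28 (-3.66 ± 0.22, SD, n = 2). The groups of day 14 overlapped, and control day 28 did not overlap any other group. How many features share that last pattern was not counted.

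Dmrta2os differed between OVA and control by 0.08 ± 0.13 (SE, log2) at day 14 (adjusted p = 0.818, limma), and by -0.17 with spike-in scaling. At day 28 it was higher in OVA by 0.31 ± 0.13, which did not pass (adjusted p = 0.136). The groups did not overlap there, as in 19.1% of all features. The day 28 difference was 0.16 without control day 28 replicate 1 and 0.46 without control day 28 replicate 2, and turned to -0.18 with the normexp background. The OVA effect differed between days by 0.23 ± 0.19 (adjusted p = 0.491).

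In the OVA spleens the scaled level of Dmrta2os was lower at day 28 than at day 14, by -0.32 ± 0.11 (SE, log2, adjusted p = 0.0365, limma), and the groups overlapped. Before scaling, its spots read 26.2 to 47 signal units at day 14 and 38.5 to 59.8 at day 28. The unscaled signal was thus not lower at day 28, and the part of the scaling was not tested. The difference stayed below 0 in all 23 alternatives that could be computed, from -0.46 to -0.21, but missed the threshold in 10. Among these were spike-in scaling (-0.21, adjusted p = 0.244), no filter on dim probes (adjusted p = 0.0598) and leaving out OVA day 14 replicate 1, 2 or 4 or OVA day 28 replicate 1, 3 or 4 (adjusted p = 0.0556 to 0.0975). In the controls, within 1 slide, it was lower at day 28 by -0.55 ± 0.15, without overlap, and did not pass (adjusted p = 0.342). Control arrays of day 28 lay below those of day 14 without overlap in 14% of all features.

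The spots of Dmrta2os gave a measure of the error within an array. They differed by 0.14 to 0.52 on the log2 scale, with a median of 0.32, and the second spot was higher on 9 of 12 arrays. The first spot alone gave -0.44 between the OVA groups and the second -0.21, and between the controls they gave -0.82 and -0.29. The scaled levels of both spots were thus lower at day 28, by amounts that differed about as much as the spots themselves. At day 28 they gave nearly the same value for OVA against control, 0.30 and 0.31, and at day 14 they gave -0.08 and 0.23. The median deviation of the spots around the second spot was 0.054 to 0.097 on the OVA arrays of day 14. On those of day 28 it was -0.093 to -0.012. Around the first spot it was -0.004 to 0.078 and -0.055 to 0.028. The part of these local shifts in the differences of Dmrta2os was not tested.

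**Figure D3:**
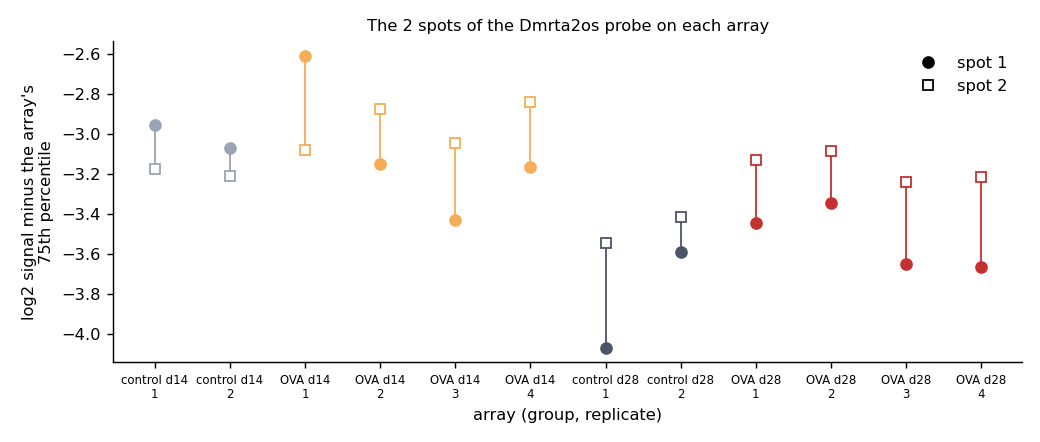
Level at each of the 2 spots of the Dmrta2os probe (log2 signal minus the array's 75th percentile, vertical axis) on each array, joined by a line. The spots lie 0.14 to 0.52 apart, as far as most group differences of this gene, and both are lower in the day 28 controls than in the day 14 controls.

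Over the 3 genes, 0 passed at day 14 by limma, where 0.0676% of all features passed, and 1 had an unadjusted p under 0.05 (14.7% of all features). At day 28, 0 passed, where 14.1% of all features passed, and 3 had an unadjusted p under 0.05 (30.2% of all features), each with higher values in OVA (14.1% of all features). The filter let Halr1 in because it was high at day 28, so its share in that count supports nothing. The OVA effect differed between days in 0 of the 3 by limma (2.95% of all features), with 0 at an unadjusted p under 0.05 (22.3%). Between the OVA groups Emx2os and Dmrta2os passed, where 34.1% of all features did. The nominal value of Halr1 passed there too and is not counted, since the gene entered the test through day 28. Between the controls 0 passed (0.00138% of all features), with 1 at an unadjusted p under 0.05 (10.3%).

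**Figure D4:**
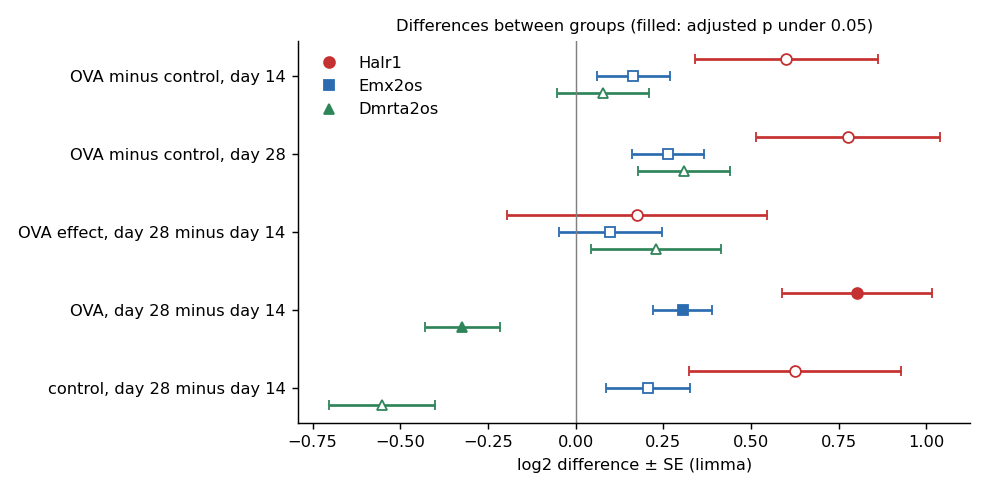
Log2 differences ± SE from the limma model (horizontal axis) for the 3 genes in each of 5 comparisons, with filled symbols where the adjusted p was under 0.05. Only the differences between the OVA groups are filled, at a nominal 0.80 for Halr1, which was not well above background in OVA spleens of day 14, 0.31 for Emx2os and -0.32 for Dmrta2os.

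The comparisons of OVA with control and of the OVA groups share samples, and the values of each gene stand side by side above for that reason only. Over the 12 arrays the levels of Halr1 and Emx2os had a Pearson r of 0.886, with Halr1 not well above background on 8 of them. Dmrta2os had an r of -0.283 with Halr1 and -0.311 with Emx2os. Over the 8 arrays without OVA day 28 the r was 0.745 for Halr1 and Emx2os. For Dmrta2os it was -0.134 with Halr1 and -0.116 with Emx2os. These are descriptions over arrays that share slides and a scaling constant.

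Levels were also compared with those of other named genes, leaving out Gm, LOC, Rik and clone-type names, although 2512 tested features were named by accession. Among 160 named genes open to the comparison, the levels most like Halr1 over the 12 arrays were those of a non-coding transcript of Aopep, an aminopeptidase gene (r = 0.856), of Mtag2 (r = 0.850) and of a non-coding transcript of Scnn1b, the gene of a sodium channel subunit (r = 0.795). For Emx2os they were Aopep (r = 0.878), Mtag2 (r = 0.862) and the pseudogene Gsdmcl2 (r = 0.858). Halr1 was well above background on the OVA arrays of day 28 alone, and its r values rest on the dimmer readings too. Over the 8 arrays without OVA day 28, Halr1 had an r of 0.631 with Aopep, 0.589 with Mtag2 and 0.641 with Scnn1b, all from such dim readings. Over the same 8 arrays Emx2os had an r of 0.657 with Aopep, 0.521 with Mtag2 and 0.386 with Gsdmcl2. For Dmrta2os the most alike were the pseudogenes Morf4l1-ps1 (r = 0.743) and Rps15a-ps4 (r = 0.715) and the opposite-strand RNA Ptprtos (r = 0.636), with 0.816, 0.737 and 0.662 over the other 8 arrays. The genes were picked for their r over the 12 arrays, so that the values over 8 arrays are not compared with it.

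Of 61 other non-coding RNA genes, listed for comparison as developmental RNAs whether or not they lie beside a regulator, 19 had a named probe and 10 of these were tested. None of the 10 passed for OVA against control on either day by limma, where 0.0676% of all features passed at day 14 and 14.1% at day 28. Their median difference was 0.12 at day 14 and -0.06 at day 28, against 0.05 and -0.03 over all features. Between the OVA groups 0 rose and 1 fell, where 15% of all features rose and 19.1% fell, with a median of -0.11 against -0.06 over all features. The RNA that fell was Lncpint, a p53-induced RNA (1.42 ± 0.14 at day 28 and 1.72 ± 0.11 at day 14, SD, n = 4 each). The log2 difference was -0.305 ± 0.10 (SE, adjusted p = 0.0304, limma).

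Hottip and Hotair, RNAs of the HOXA and HOXC clusters, were tested as well. Hottip was well above background on 9 of the 12 arrays and Hotair on 10. For Hottip the exceptions were OVA day 28 replicate 4, control day 28 replicate 2 and OVA day 14 replicate 2. These dim readings enter the means and differences below, which are nominal for that reason. On day 28 the Hottip mean of the OVA spleens was -4.49 ± 0.92 (SD, n = 4), and that of the controls -4.44 ± 0.88 (SD, n = 2). The Hotair means were -3.86 ± 0.31 and -3.58 ± 0.43. The Hottip levels of the OVA spleens ran from -5.85 (replicate 4, not well above background) to -3.85 at day 28. At day 14 they ran from -3.74 to -3.18, a difference that did not pass (-0.95 ± 0.40, SE, adjusted p = 0.0843, limma). Haglr, of the HOXD cluster, was not well above background on any of the 12 arrays.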

How the data were processed

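RNA from 12 spleens was labelled with Cy3 and read on 12 single-colour Agilent arrays. The deposited scanner files give spot intensity on a linear scale, already corrected for background. Per the file headers this was done in Agilent Feature Extraction 11.5.1.1, which also set the spot flags, while version 9.1 stands in the submitters' processing notes. The table of log2 values that the authors also deposited holds none of these probes and was not used. Here log2 of the processed signal was taken and the 75th percentile over non-control spots subtracted. Spots of 1 probe were averaged without outlier-flagged ones. A probe counted as well above background on an array when all its spots did, and a feature was tested when this held on every array of at least 1 group and each array had a spot of it without an outlier flag. Of 13017 RefSeq probes, 4656 were named by accession without version, using the table of GRCm38.p6. Of 29 probes that carry a name of their own, 20 matched a symbol or synonym. Tests were made with limma 3.58.1 in R 4.3.3 (8 residual degrees of freedom), with eBayes and Benjamini-Hochberg adjustment, and were checked on simulated data. The normexp setting changed the background method, its offset of 50 and the signal together, since it used the spot median where the files hold no mean. The genes, lists and alternatives were chosen with earlier results of these data known. Named are the 3 genes, listed RNAs with a tested probe (with values for some), and for each gene the 3 named genes of highest Pearson r over the 12 arrays. Haglr was added after its values were seen. 1 further probe is not reported here. The number of arrays limits the precision. Same-numbered samples correlated by -0.181 to 0.316 in their deviations from the group means, with 4 of 14 pairs above 0.1, so the numbers were not taken to pair the samples.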

Additional observations from a re-analysis of the deposited data

How the results depend on the processing

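With spike-in scaling the median of all features shifted by -0.25 at day 14, 0.24 for the OVA effect between days, 0.12 between the OVA groups and -0.12 between the controls. The normexp setting shifted it by -0.12 (-0.115 before rounding) at day 28, -0.14 for the OVA effect and -0.16 between the OVA groups, and the percentile over detected probes by 0.10 for the OVA effect. Under normexp, Halr1 turned to -0.22 at day 28, -0.44 for the OVA effect (adjusted p = 0.0118, limma) and -0.38 between the OVA groups, and Dmrta2os to -0.18 at day 28 and -0.295 for the OVA effect, while Emx2os passed at day 28 with 0.29. Under spike-in scaling Emx2os and Dmrta2os turned to -0.0895 and -0.17 at day 14. The cause of these turns was not tested, and an offset of 50 units exceeds the signal of Halr1 on every array. Halr1 passed at day 28 with only the groups compared (0.78). Dmrta2os between the OVA groups lost its call with the percentile over detected probes (-0.27), spike-in scaling (-0.21), no filter and trend with robust eBayes (both -0.32). With 1 array left out, Halr1 lay between 0.70 and 0.85 at day 28 and between -0.33 and 0.68 for the OVA effect. Emx2os then lay between -0.03 and 0.23 for the OVA effect, with -0.0312 and -0.01 without control day 14 and control day 28 replicate 1, and between 0.28 and 0.32 between the OVA groups. Dmrta2os lay between -0.39 and -0.26 there. With the replicate block the log2 differences between OVA and control at day 28 were 0.81 for Halr1, 0.23 for Emx2os and 0.40 for Dmrta2os, and the block changed no call of the 3 genes. Each gene had 1 probe by the rule, and no other probe was tested. Halr1 and Dmrta2os could not be fitted with only probes detected on all arrays, and slide as a block could be fitted only between the controls, where it changed nothing.

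The number of features past the threshold at day 14 was 49, and by limma it was 2 with array position as a block, 1 with array weights, 1 without a filter, 260 with normexp, 12 with the percentile over detected probes, 267 with only probes detected on all arrays, 141 with quantile normalization, 442 with spike-in scaling and 232 with trend and robust eBayes. It was 0 with only the groups compared (8841 at an unadjusted p under 0.05) and 0 with the replicate block (9251). At day 28 it was 10191, and 4165 with array position, 5943 without a filter, 27651 with normexp, 6652 with the replicate block and 6504 with spike-in scaling. For the OVA effect between days it was 2138, and 0 with array position (11912 at an unadjusted p under 0.05), 495 with array weights, 329 without a filter, 22051 with normexp, 3951 with only probes detected on all arrays, 391 with the replicate block and 4278 with trend and robust eBayes. Between the OVA groups it was 24708, and 47594 with normexp. Between the controls it was 1 by limma, and 0 with array position, array weights and only the groups compared (3857, 4227 and 4444 at an unadjusted p under 0.05), 3 with normexp, and 2 with only probes detected on all arrays, with spike-in scaling and with trend and robust eBayes. With 1 array left out the counts ran from 2 (without OVA day 28 replicate 3) to 2309 (without control day 14 replicate 2) at day 14, from 1886 (without control day 28 replicate 2) to 12150 (without control day 14 replicate 1) at day 28, from 255 (without control day 28 replicate 2) to 5891 (without control day 14 replicate 2) for the OVA effect, and from 1 to 1892 (without control day 14 replicate 2) between the controls. A lone control left on a day is assumed to vary like the other groups.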
